A study of Homo sapiens with 9 samples.

Results

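The genes described here are 40 genes of mitosis, taken by symbol from the count table of an LSD1 depletion experiment in lymphoma cells. All 40 were found among the 26816 genes of the table, and all 40 were among the 15725 genes with enough reads to be tested. They cover the cyclins and phosphatases of CDK1, the mitotic kinases, the spindle checkpoint, the kinetochore, the chromosomal passenger complex, the spindle, cytokinesis and mitotic chromosome structure. Symbols beginning with KIF were left out by rule, which removes most kinesin motors, but CENPE, a kinetochore motor of the kinesin family, has another kind of symbol and is included.

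The cells were OCI-Ly1, a human diffuse large B-cell lymphoma line of germinal-centre type, grown in IMDM with fetal bovine serum. They carried pLKO1 vectors for 1 of 2 shRNAs against KDM1A, the gene of the histone demethylase LSD1, or for a scrambled shRNA, and were selected with puromycin. Polyadenylated RNA was sequenced from 3 libraries of sh72 cells, 3 of sh68 cells and 3 of shSCR cells, described as biological triplicates. The hairpin names come from the columns of the count table, and no label links them to the hairpin numbers in the sample titles. All libraries came from 1 cell line, every control also carried an shRNA, and both hairpins were set against the same 3 control libraries.

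Mitosis begins when cyclin B bound to CDK1 is switched on by CDC25 phosphatases. Polo, Aurora and NEK kinases then separate the centrosomes and build the spindle, and the kinetochores hold each chromatid to spindle microtubules. The spindle checkpoint blocks CDC20 until all chromosomes are attached, after which the anaphase-promoting complex destroys securin and cyclin B, separase cuts cohesin, and the cell divides at a ring laid down by anillin. Most of these genes are transcribed in a wave in G2 and mitosis, and germinal-centre B cells, which divide fast, express them strongly. In bulk RNA, fewer cells in mitosis and less RNA per mitotic cell cannot be told apart.

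The libraries held 29506767 to 35270849 counts. KDM1A had 19.1, 22.7 and 20.9 CPM (counts scaled to the library's depth and TMM factor) in sh72 cells, 23.4, 24.1 and 25.8 CPM in sh68 cells and 121, 119.9 and 123 CPM in shSCR cells, so every LSD1 shRNA library lay far below every control. B-cell markers (MS4A1, CD79A, CD79B, PAX5, BCL6 and MME, all 6 detected) summed to 2877 to 3046 CPM in sh72 cells, 4449 to 4557 CPM in sh68 cells and 4384 to 4587 CPM in shSCR cells, so the line matched its label but the sum was lowest with sh72. Summed markers of T cells, monocytes and macrophages, erythroid cells and fibroblasts reached at most 3.31 CPM in any library. Of the epithelial markers KRT19 and CDH1 reached at most 0.0631 CPM, and EPCAM had 7.40 to 18.1 CPM.

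The mitosis genes were lower after LSD1 depletion more often than higher, by small amounts. On the mean of both hairpins 24 of the 40 fell and 2 rose (edgeR quasi-likelihood test, adjusted p below 0.05), 60% and 5%, against 27.5% and 24.9% of all genes tested. With sh72 alone 14 fell and 6 rose, 35% and 15%, against 26.3% and 24.7% of all genes. With sh68 alone 26 fell and 3 rose, 65% and 7.5%, against 28.1% and 27.4%. The median log2 fold change of the 40 was -0.12 on the mean of both hairpins, -0.055 with sh72 and -0.19 with sh68, where the medians over all genes were -0.015, -0.011 and -0.0082. The share of members that fell was therefore nearer to the background with sh72 than with sh68 or on the mean.

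No member changed 2-fold in any comparison, whereas 6.14% of all genes did so on the mean of both hairpins, 6.73% with sh72, 9.22% with sh68 and 7.99% between the hairpins. In 12 members (30%) all 6 LSD1 shRNA libraries lay below all 3 shSCR libraries, which was the case for 15.3% of all genes. These were CCNB1, CDC25C, NEK2, UBE2C, ESPL1, CDCA3, NUF2, INCENP, TPX2, ANLN, TOP2A and MKI67. The opposite order was found for 1 member (2.5%), PRC1, and for 14.6% of all genes. When the 6 LSD1 shRNA libraries were fitted as 1 group, which puts the difference between hairpins into the spread, 11 members were lower and 1 was higher, against 11% and 11.8% of all genes.

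The 40 genes together took 0.591 ± 0.0148% of counts in sh72 cells, 0.574 ± 0.0236% in sh68 cells and 0.622 ± 0.00633% in shSCR cells (SD, n = 3 each). With library size alone for scaling, the split on the mean was 6 higher and 21 lower, and with upper quartile scaling it was 6 and 19. For sh68, upper quartile scaling moved the share of higher calls among all changed genes to 59.5%, against 49.4% with the main scaling. These alternatives shifted the median of all genes by at most 0.056 on the log2 scale.

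**Figure D1:**
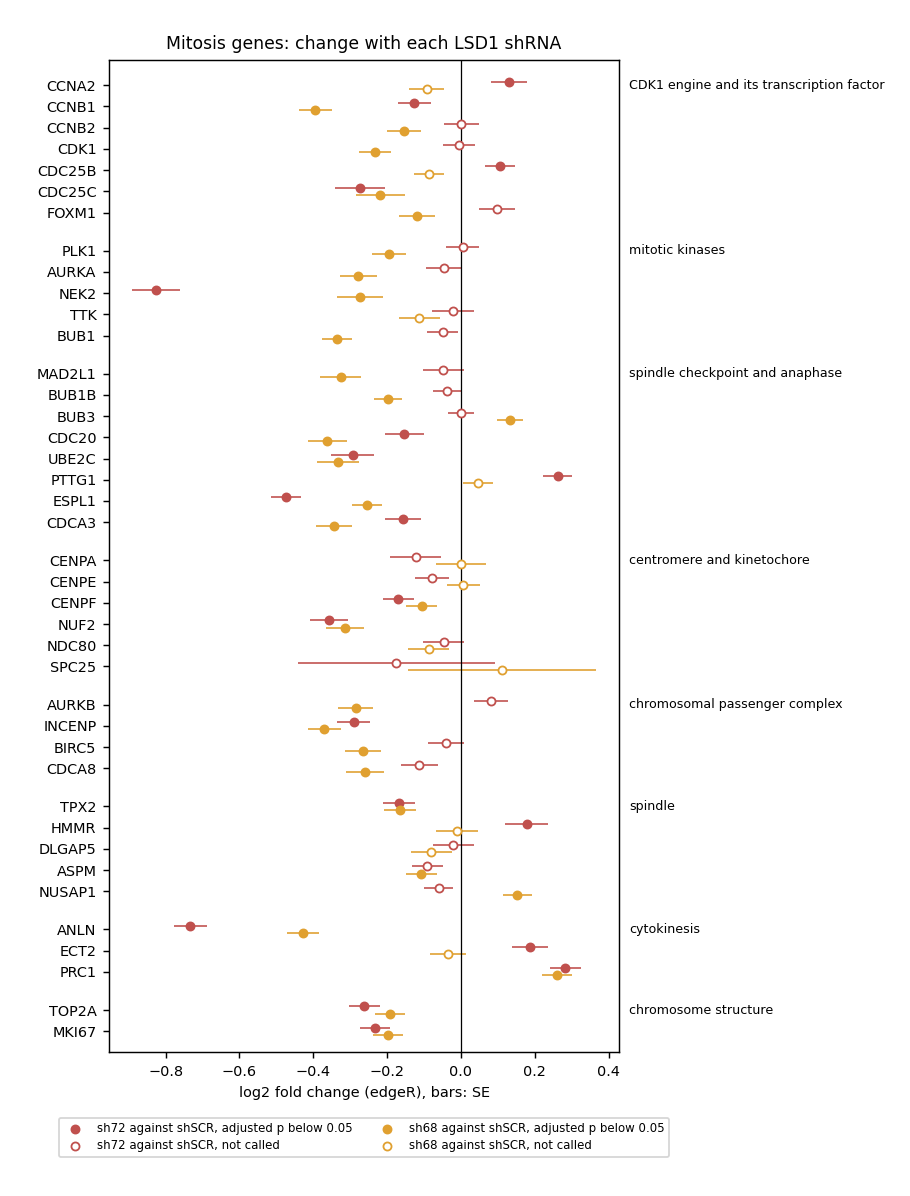
Log2 fold change of each of the 40 mitosis genes against shSCR, in sh72 cells and in sh68 cells, with the SE as bars and genes ordered by role; filled points have an adjusted p below 0.05. NEK2 and ANLN lie farthest to the left with sh72, and ANLN and CCNB1 with sh68. PRC1 is right of 0 with both hairpins, and most genes of the checkpoint and the chromosomal passenger complex lie farther left with sh68 than with sh72.

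Many genes of this wave are known to share promoter letters, the CCAAT box that NF-Y binds and the CHR (cell cycle genes homology region), which the MuvB core of the DREAM and MYB-MuvB complexes binds. RefSeq promoter entries on GRCh38.p14 were found for 33 of the 40 genes, and none for FOXM1, AURKA, TTK, BUB3, UBE2C, BIRC5 and TPX2. In the 250 bases before the start, searched on both strands, the letters CCAAT stood in 26 of 33 (78.8%), against 32% of 35116 promoters. The letters TTTGAA or TTCGAA stood in 18 (54.5%), against 14.3%, and both motifs in 16 (48.5%), against 5.05%. Among promoters of tested genes, 32.6% held CCAAT, 10.5% TTTGAA or TTCGAA and 3.95% both. Matches of the motifs overlapped in CDCA8, HMMR, MKI67 and PTTG1.

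The 120 bases before the start are printed for NEK2, ANLN, ESPL1 and INCENP, which are among the genes that fell most on the mean of both hairpins, for the cyclin CCNB1, and for PRC1, which rose. NUF2, which fell about as much as INCENP on that mean (log2 -0.34 and -0.33), held neither motif in its window and is not printed. Capitals mark CCAAT and TTTGAA or TTCGAA, or their reverse complements. The regions are chr1:211675622-211675741 (minus strand), chr7:36389742-36389861 (plus strand), chr12:53268179-53268298 (plus strand), chr11:62123891-62124010 (plus strand), chr5:69167030-69167149 (plus strand) and chr15:90994536-90994655 (minus strand), each written in the direction of transcription.
NEK2: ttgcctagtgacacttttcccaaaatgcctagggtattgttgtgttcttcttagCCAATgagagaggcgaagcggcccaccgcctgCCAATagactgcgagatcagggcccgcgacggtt
ANLN: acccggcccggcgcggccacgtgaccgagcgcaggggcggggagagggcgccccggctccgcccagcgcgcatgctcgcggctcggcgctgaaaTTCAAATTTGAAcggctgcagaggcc
ESPL1: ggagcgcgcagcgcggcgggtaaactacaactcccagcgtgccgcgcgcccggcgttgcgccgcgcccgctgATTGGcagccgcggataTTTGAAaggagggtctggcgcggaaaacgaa
INCENP: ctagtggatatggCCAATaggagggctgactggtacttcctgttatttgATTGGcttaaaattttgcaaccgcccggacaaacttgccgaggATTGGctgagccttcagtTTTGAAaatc
CCNB1: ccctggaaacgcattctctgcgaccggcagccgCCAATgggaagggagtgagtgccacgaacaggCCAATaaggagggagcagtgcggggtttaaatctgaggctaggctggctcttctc
PRC1: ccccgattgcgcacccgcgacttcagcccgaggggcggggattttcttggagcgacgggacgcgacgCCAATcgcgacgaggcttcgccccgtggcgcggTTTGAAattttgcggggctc

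ANLN held 2 abutting CHR matches, first at 26 and 20 bases before the start, and no CCAAT in the window. NEK2 and CCNB1 held CCAAT and no CHR letters, and ESPL1, INCENP and PRC1 held both. Of 58 CCAAT matches in the members, 34 began 51 to 110 bases before the start, with a median of 77 bases, and of 24 CHR matches 14 began within 50 bases, with a median of 30. On the mean of both hairpins, 9 of the 16 genes with both motifs fell and 1 rose, and of the 10 with CCAAT alone 7 fell and 1 rose. Both genes with CHR alone (ANLN and BUB1B) fell, as did 2 of the 5 with neither, NUF2 and CDC25C. Bases past the start, and other starts of a gene, were not searched, so a gene without a match may still have the element. Of all 40 members 60% fell and 5% rose, against 27.5% and 24.9% of all genes. Whether the calls differ between these motif classes was not tested. PRC1, which rose, and ESPL1, which fell, are 2 of the 16 genes with both motifs.

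**Figure D2:**
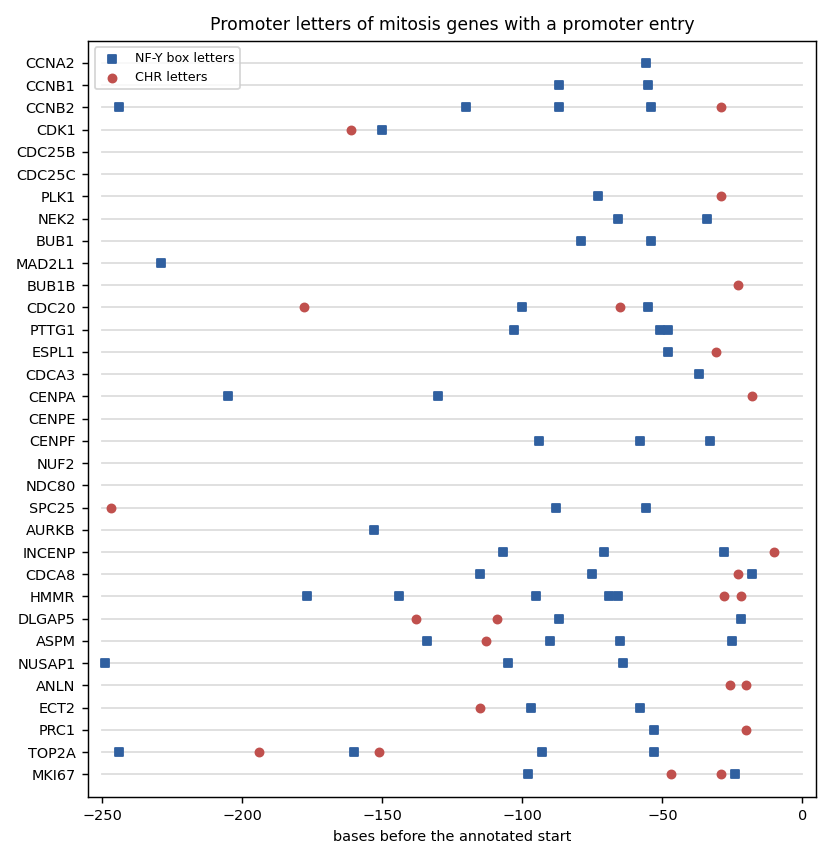
Positions of the CCAAT (NF-Y box, squares) and TTTGAA or TTCGAA (CHR, circles) matches in the 250 bases before the annotated start of the 33 mitosis genes with a promoter entry; each line is 1 promoter and the horizontal axis is in bases. The 24 CHR matches lie mostly close to the start, with a median of 30 bases, and the 58 CCAAT matches farther out, with a median of 77.

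In the CDK1 engine, cyclin B1 and CDC25C fell with each hairpin, and each of the other members was called with 1 hairpin only. CCNB1, the cyclin that carries CDK1 into mitosis, had 147, 139 and 140.1 CPM in sh72 cells, 109, 122 and 123 CPM in sh68 cells and 152, 153 and 160.3 CPM in shSCR cells. All 6 LSD1 shRNA libraries lay below the controls, and the sh68 libraries lay below those of sh72. Its log2 fold change was -0.13 ± 0.044 in sh72 cells (adjusted p = 0.0201) and -0.39 ± 0.045 in sh68 cells (adjusted p = 7.38e-08), and the sh72 call was lost without sh72 replicate 2, sh72 replicate 3, shSCR replicate 1 or shSCR replicate 3 (log2 -0.093, adjusted p = 0.148 at the highest p). CDC25C, a phosphatase that activates CDK1, had 17.1, 16.7 and 18.4 CPM in sh72 cells, 17.1, 19.1 and 18.1 CPM in sh68 cells and 19.9, 20.9 and 22.4 CPM in shSCR cells, again with no overlap between depleted and control libraries. Its log2 fold change was -0.27 ± 0.067 in sh72 cells (adjusted p = 0.00152) and -0.22 ± 0.067 in sh68 cells (adjusted p = 0.00755), and the sh68 call was lost without sh68 replicate 1 or shSCR replicate 3 (log2 -0.16, adjusted p = 0.0635 at the higher p). About 10.7% of its exon bases overlap FAM53C on the other strand, and the strand setting of the counting is not given in the sources used here. FAM53C had up to 6468 reads in a library, against 530 to 703 for CDC25C.

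CDK1 itself fell with sh68 (log2 -0.23 ± 0.044 SE, adjusted p = 8.11e-05) and stood at -0.0048 with sh72, which was not called. CCNB2, another B-type cyclin, had the same pattern, at 0.0011 in sh72 cells and -0.15 in sh68 cells, of which the sh68 value passed but not without sh68 replicate 1 or shSCR replicate 2 (log2 -0.087, adjusted p = 0.102 at the higher p). FOXM1, a transcription factor of G2 genes, was at 0.10 in sh72 cells and -0.12 in sh68 cells, and its sh68 call was lost without sh72 replicate 3, sh68 replicate 1, sh68 replicate 2, sh68 replicate 3, shSCR replicate 1 or shSCR replicate 3 (log2 -0.10, adjusted p = 0.163 at the highest p). CCNA2, the cyclin of S phase and G2, and CDC25B, a phosphatase acting at centrosomes, rose with sh72, at log2 0.13 ± 0.048 (SE, adjusted p = 0.027) and 0.11 ± 0.041 (SE, adjusted p = 0.032), and had -0.093 and -0.086 with sh68, neither called. The sh72 call of CCNA2 was lost without sh72 replicate 1 or shSCR replicate 2 and that of CDC25B without sh72 replicate 1 or shSCR replicate 3, and at the higher p the log2 fold changes were 0.076 and 0.058 (adjusted p = 0.177 and 0.228). About 5.15% of the CCNA2 exon bases overlap EXOSC9 on the other strand, which had up to 3294 reads in a library, against 3154 to 4502 for CCNA2.

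Among the mitotic kinases NEK2 fell most on the mean of both hairpins and with sh72, while with sh68 the log2 fold changes of BUB1 and AURKA (-0.34 and -0.28) were lower than that of NEK2 (-0.27). NEK2, which dissolves the linker between centrosomes, had 27.1, 23.1 and 24.8 CPM in sh72 cells, 32.9, 39.6 and 37.4 CPM in sh68 cells and 44.1, 44.9 and 44.1 CPM in shSCR cells. The libraries of the 3 kinds of cells did not overlap, with sh72 lowest and shSCR highest. It fell by 43.6% with sh72 and by 17.3% with sh68, log2 -0.83 ± 0.065 in sh72 cells (adjusted p = 2.02e-10) and -0.27 ± 0.062 in sh68 cells (adjusted p = 0.000637). BUB1, the checkpoint kinase that marks centromeric chromatin, had 158, 148 and 158 CPM in sh72 cells, 121, 132 and 127 CPM in sh68 cells and 162, 156 and 162 CPM in shSCR cells. The sh68 libraries lay below all others and the sh72 libraries overlapped the controls, with log2 fold changes of -0.050 ± 0.041 in sh72 cells (adjusted p = 0.323) and -0.34 ± 0.041 in sh68 cells (adjusted p = 2.24e-07).

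PLK1, a kinase of centrosome maturation and mitotic entry, and AURKA, the kinase of spindle poles, fell with sh68, at log2 -0.19 ± 0.046 (SE, adjusted p = 0.000901) and -0.28 ± 0.050 (SE, adjusted p = 5.58e-05). With sh72 they stood at 0.0046 and -0.046, neither called. On the mean of both hairpins PLK1 passed narrowly (log2 -0.095 ± 0.039 SE, adjusted p = 0.0474), and that call was lost without sh72 replicate 2, sh72 replicate 3, sh68 replicate 1, sh68 replicate 3, shSCR replicate 1, shSCR replicate 2 or shSCR replicate 3 (highest p at log2 -0.072, adjusted p = 0.242). TTK, which starts the checkpoint, was at -0.021 in sh72 cells and -0.11 in sh68 cells, neither called in the main fit. Its sh68 libraries lay below the controls, and the sh68 difference was called when only the groups compared were fitted. The difference between hairpins was called without sh72 replicate 2 but not in the main fit.

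The checkpoint and anaphase genes mostly fell, with securin and BUB3 as the exceptions. ESPL1, the separase that cuts cohesin, had 78.9, 79.0 and 76.2 CPM in sh72 cells, 89.8, 89.7 and 93.2 CPM in sh68 cells and 111, 106 and 108 CPM in shSCR cells. No libraries of the 3 kinds overlapped, and it fell by 28.0% with sh72 and by 16.2% with sh68, log2 -0.47 ± 0.040 in sh72 cells (adjusted p = 6.85e-10) and -0.25 ± 0.040 in sh68 cells (adjusted p = 7.71e-06). PTTG1, the securin that holds separase inactive, had 127, 119.97 and 125 CPM in sh72 cells, 103, 109 and 108 CPM in sh68 cells and 104, 101 and 104 CPM in shSCR cells. The sh72 libraries lay above all others, and the sh68 libraries overlapped the controls, with log2 fold changes of 0.26 ± 0.040 in sh72 cells (adjusted p = 5.9e-06) and 0.046 ± 0.040 in sh68 cells (adjusted p = 0.334). The inhibitor of separase and separase itself thus differed in direction in sh72 cells. Reads of PTTG1 cannot be separated with certainty from those of its near-identical retrocopies.

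UBE2C, the ubiquitin-conjugating enzyme of the anaphase-promoting complex, had 54.8, 47.6 and 51.1 CPM in sh72 cells, 46.6, 54.6 and 48.3 CPM in sh68 cells and 64.7, 62.5 and 61.1 CPM in shSCR cells, with all depleted libraries below the controls. Its log2 fold change was -0.29 ± 0.058 in sh72 cells (adjusted p = 0.000157) and -0.33 ± 0.058 in sh68 cells (adjusted p = 3.08e-05). CDC20, the activator that the checkpoint restrains, fell with sh68 (log2 -0.36 ± 0.053 SE, adjusted p = 3.59e-06) and, less firmly, with sh72 (-0.15 ± 0.053 SE, adjusted p = 0.0178), where the call was lost without sh72 replicate 2, sh72 replicate 3, shSCR replicate 1 or shSCR replicate 2 (log2 -0.10, adjusted p = 0.182 at the highest p). CDCA3, first described in Xenopus as a trigger of mitotic entry, fell with both, at -0.16 ± 0.049 in sh72 cells (adjusted p = 0.00914) and -0.34 ± 0.049 in sh68 cells (adjusted p = 2.39e-06), and its sh72 call was lost without sh72 replicate 2 or shSCR replicate 1 (log2 -0.11, adjusted p = 0.096 at the higher p). About 7.71% of CDCA3 exon bases overlap GNB3 on the other strand.

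MAD2L1 (MAD2) and BUB1B (BUBR1), which hold CDC20, fell with sh68, at log2 -0.33 ± 0.056 (SE, adjusted p = 2.6e-05) and -0.20 ± 0.038 (SE, adjusted p = 0.000123), and stood at -0.048 and -0.039 with sh72, neither called. Their partner BUB3 rose with sh68 (log2 0.13 ± 0.034 SE, adjusted p = 0.00217) and stood at 0.00064 with sh72. MAD2L1 and BUB1B on one side and BUB3 on the other therefore moved in opposite directions with sh68. BUB1B shares 4.57% of its exon bases with BUB1B-PAK6 on the same strand.

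At the kinetochore NUF2 stood apart. NUF2, a subunit of the NDC80 complex that grips microtubules, had 51.8, 50.3 and 49.2 CPM in sh72 cells, 47.4, 55.8 and 52.6 CPM in sh68 cells and 64.3, 65.1 and 64.5 CPM in shSCR cells. Every depleted library lay below every control, and the log2 fold change was -0.36 ± 0.052 in sh72 cells (adjusted p = 3.41e-06) and -0.31 ± 0.051 in sh68 cells (adjusted p = 1.56e-05). CENPF, a large outer kinetochore protein, had 281, 254 and 273 CPM in sh72 cells, 269, 296 and 279.9 CPM in sh68 cells and 307, 309.7 and 293 CPM in shSCR cells. The sh72 libraries lay below the controls and the sh68 libraries overlapped them, with log2 fold changes of -0.17 ± 0.043 in sh72 cells (adjusted p = 0.00185) and -0.11 ± 0.043 in sh68 cells (adjusted p = 0.0376). The sh68 call of CENPF was lost without sh72 replicate 2, sh72 replicate 3, sh68 replicate 1, sh68 replicate 3, shSCR replicate 1 or shSCR replicate 2 (log2 -0.067, adjusted p = 0.237 at the highest p) and the sh72 call without sh72 replicate 2 (log2 -0.11, adjusted p = 0.053).

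NDC80 and SPC25, the other members of the complex among the 40, were not called in any comparison. NDC80 was at -0.047 in sh72 cells and -0.087 in sh68 cells, and SPC25 at -0.18 in sh72 cells and 0.11 in sh68 cells, the SPC25 values resting on 15 to 36 reads a library. SPC25 averaged 0.857 CPM in shSCR cells. Its partner SPC24, which is not among the 40, had 46.9, 40.7 and 42.3 CPM in sh72 cells, 35.9, 39.9 and 38.8 CPM in sh68 cells and 38.0, 35.7 and 35.6 CPM in shSCR cells. Every sh72 library thus lay above every control for SPC24, and the sh68 libraries overlapped the controls. CENPA, the histone H3 variant of centromeres, was at -0.12 in sh72 cells and 0.00061 in sh68 cells, and the motor CENPE at -0.079 in sh72 cells and 0.0066 in sh68 cells. NDC80, SPC25, CENPA and CENPE had overlapping libraries in all comparisons.

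All 4 genes of the chromosomal passenger complex fell with sh68, and INCENP alone passed with sh72. INCENP, the scaffold of the complex, had 121, 109 and 109 CPM in sh72 cells, 104, 111 and 105 CPM in sh68 cells and 142, 138 and 134 CPM in shSCR cells, with every depleted library below every control. Its log2 fold change was -0.29 ± 0.045 in sh72 cells (adjusted p = 7.69e-06) and -0.37 ± 0.045 in sh68 cells (adjusted p = 1.95e-07). AURKB, its kinase, had 74.0, 68.0 and 66.4 CPM in sh72 cells, 52.5, 53.8 and 55.3 CPM in sh68 cells and 64.2, 66.5 and 66.3 CPM in shSCR cells. The sh68 libraries lay below all others, the sh72 libraries overlapped the controls, and the log2 fold changes were 0.082 ± 0.047 in sh72 cells (adjusted p = 0.151) and -0.29 ± 0.047 in sh68 cells (adjusted p = 1.81e-05). On the mean of both hairpins AURKB passed at -0.10 ± 0.041 (SE, adjusted p = 0.039), and that call was lost without any 1 library other than sh72 replicate 1 (highest p at log2 -0.084, adjusted p = 0.17).

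CDCA8 (borealin), a targeting subunit, had 104, 91.2 and 95.1 CPM in sh72 cells, 82.7, 94.1 and 85.1 CPM in sh68 cells and 102, 108 and 103 CPM in shSCR cells. The sh68 libraries lay below the controls, the sh72 libraries overlapped both other kinds, and the log2 fold changes were -0.11 ± 0.051 in sh72 cells (adjusted p = 0.0675) and -0.26 ± 0.051 in sh68 cells (adjusted p = 0.000129). BIRC5 (survivin), the other targeting subunit, fell with sh68 at -0.26 ± 0.049 (SE, adjusted p = 7.54e-05) and stood at -0.040 with sh72. AURKB, the only member of the complex above 0 with sh72, did not pass there.

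Of the spindle genes TPX2 fell with each hairpin. TPX2, which activates AURKA on spindle microtubules, had 245, 221 and 232 CPM in sh72 cells, 220.01, 248 and 231 CPM in sh68 cells and 263, 263 and 258 CPM in shSCR cells, all depleted libraries lying below the controls. Its log2 fold change was -0.17 ± 0.044 in sh72 cells (adjusted p = 0.00253) and -0.16 ± 0.044 in sh68 cells (adjusted p = 0.00248), and the sh72 call was lost without sh72 replicate 2 (log2 -0.11, adjusted p = 0.0597). ASPM, which focuses spindle poles, had 220.2, 219 and 229 CPM in sh72 cells, 206, 233 and 221 CPM in sh68 cells and 238, 229.8 and 244 CPM in shSCR cells. The sh72 libraries lay just below the controls and the sh68 libraries overlapped them. ASPM was at log2 -0.091 ± 0.042 in sh72 cells (adjusted p = 0.0754) and -0.11 ± 0.042 in sh68 cells (adjusted p = 0.0322), so that only the sh68 difference was called, and that call was lost without sh72 replicate 2, sh68 replicate 1, sh68 replicate 3, shSCR replicate 1 or shSCR replicate 3 (log2 -0.057, adjusted p = 0.273 at the highest p). The mean call of ASPM (log2 -0.10 ± 0.036 SE, adjusted p = 0.0245) was lost without sh72 replicate 2, sh68 replicate 1, sh68 replicate 3, shSCR replicate 1 or shSCR replicate 3 (highest p at log2 -0.071, adjusted p = 0.174).

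HMMR, a pole protein, rose with sh72 (log2 0.18 ± 0.057 SE, adjusted p = 0.012) and stood at -0.011 with sh68, and 3.44% of its exon bases overlap HMMR-AS1 on the other strand. NUSAP1, which bundles microtubules near chromosomes, rose with sh68 (log2 0.15 ± 0.039 SE, adjusted p = 0.0019) and stood at -0.060 with sh72. DLGAP5, which stabilises kinetochore fibres, was at -0.020 in sh72 cells and -0.080 in sh68 cells and passed nowhere.

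In cytokinesis the 3 genes went different ways. ANLN, the anillin that scaffolds the contractile ring, had 88.6, 87.0 and 91.8 CPM in sh72 cells, 102, 116 and 112 CPM in sh68 cells and 148, 146 and 151 CPM in shSCR cells. The libraries of the 3 kinds did not overlap, with sh72 lowest. It fell by 39.9% with sh72 and by 25.7% with sh68, log2 -0.73 ± 0.044 in sh72 cells (adjusted p = 2.17e-12) and -0.43 ± 0.044 in sh68 cells (adjusted p = 1.35e-08), the largest decrease of any member on the mean of both hairpins. The gene lies at chr7:36389862-36453791 on the plus strand of GRCh38.p14, and 1.63% of its exon bases overlap KIAA0895 on the other strand.

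PRC1, which bundles antiparallel microtubules in the midzone, had 161, 148 and 148 CPM in sh72 cells, 144, 153 and 152 CPM in sh68 cells and 122, 124 and 129 CPM in shSCR cells. Each depleted library lay above every control, and it rose by 21.6% with sh72 and by 19.7% with sh68, log2 0.28 ± 0.042 in sh72 cells (adjusted p = 4.18e-06) and 0.26 ± 0.041 in sh68 cells (adjusted p = 1.1e-05). About 8.01% of its exon bases overlap PRC1-AS1 on the other strand, where reads cannot be told apart if strand was not counted. PRC1-AS1 had at most 24 reads in any library, against 3590 to 5509 for PRC1. ECT2, the exchange factor that activates RhoA at the cleavage furrow, rose with sh72 (log2 0.19 ± 0.048 SE, adjusted p = 0.00224) and stood at -0.035 with sh68. Of the 3 genes, anillin was thus the one that fell, while the midzone bundler rose with both hairpins.

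TOP2A, the topoisomerase that untangles sister chromatids, had 655, 604 and 655 CPM in sh72 cells, 631, 702 and 675 CPM in sh68 cells and 775, 747 and 772 CPM in shSCR cells. MKI67, the proliferation antigen that coats mitotic chromosomes, had 787, 734 and 727 CPM in sh72 cells, 731, 810.3 and 763 CPM in sh68 cells and 901, 889 and 852 CPM in shSCR cells. In both genes all depleted libraries lay below all controls. Log2 fold changes were -0.26 ± 0.041 in sh72 cells (adjusted p = 1.16e-05) and -0.19 ± 0.041 in sh68 cells (adjusted p = 0.00038) for TOP2A, and -0.23 ± 0.041 in sh72 cells (adjusted p = 4.69e-05) and -0.20 ± 0.041 in sh68 cells (adjusted p = 0.000272) for MKI67.

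**Figure D3:**
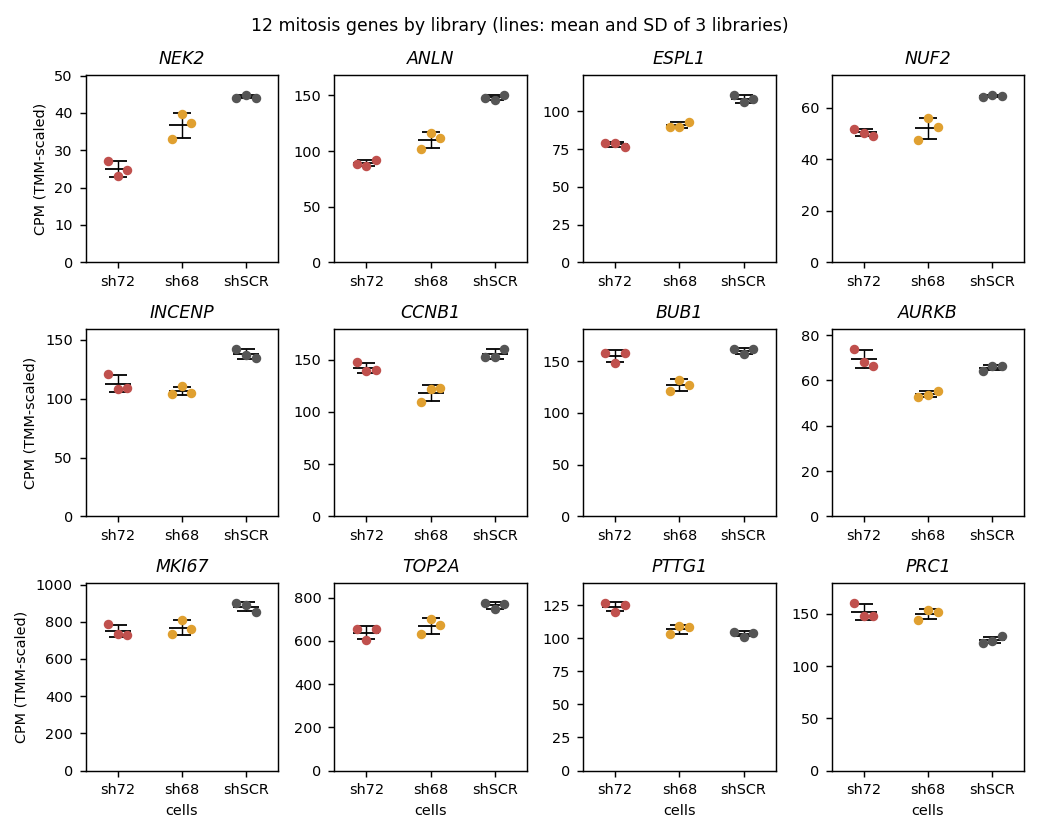
CPM of 12 mitosis genes in each library of sh72, sh68 and shSCR cells, 3 libraries each, with the mean and SD as black lines and vertical axes starting at 0. NEK2, ANLN and ESPL1 are lowest in sh72 cells, higher in sh68 cells and highest in shSCR cells, BUB1 and AURKB are low in sh68 cells alone, PTTG1 is high in sh72 cells alone, and PRC1 is higher in both.

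The hairpins differed from each other in many of these genes. In the direct test of sh72 minus sh68, 19 members were higher in sh72 and 5 were lower (47.5% and 12.5%), against 27.2% and 29% of all genes, with a median of 0.086 against -0.011 over all genes. NEK2, ANLN, ESPL1, NUSAP1 and BUB3 were the 5 that were lower in sh72. The largest positive difference was that of AURKB (log2 0.37 ± 0.047 SE, adjusted p = 4.28e-07), followed by BUB1 (0.29 ± 0.041 SE, adjusted p = 2.06e-06) and MAD2L1 (0.28 ± 0.056 SE, adjusted p = 0.000158). The largest negative one was that of NEK2 (log2 -0.55 ± 0.065 SE, adjusted p = 1.28e-07), followed by ANLN (-0.30 ± 0.045 SE, adjusted p = 2.99e-06). KDM1A was slightly lower with sh72, at log2 -0.23 ± 0.061 (SE, adjusted p = 0.00261).

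Of the CDK1 engine, 6 genes, CCNA2, CCNB1, CCNB2, CDK1, CDC25B and FOXM1, were higher in sh72 than in sh68, and so were 3 of the 4 passenger genes, AURKB, BIRC5 and CDCA8. The calls of CCNB2 and HMMR were lost without sh68 replicate 1 (log2 0.10 and 0.13, adjusted p = 0.0629 and 0.0706), and that of CDCA8 without sh72 replicate 1, sh68 replicate 1 or sh68 replicate 3 (log2 0.093, adjusted p = 0.108 at the highest p). None of the 6 kinetochore members was called between the hairpins. Of 30 further kinetochore genes 10 were higher and 11 lower in sh72 than in sh68. These were 33.3% and 36.7%, against 27.2% and 29% of all genes. The difference in the B-cell marker sum (2877 to 3046 CPM in sh72, 4449 to 4557 CPM in sh68) moved between the same libraries, and its part in the result was not tested.

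**Figure D4:**
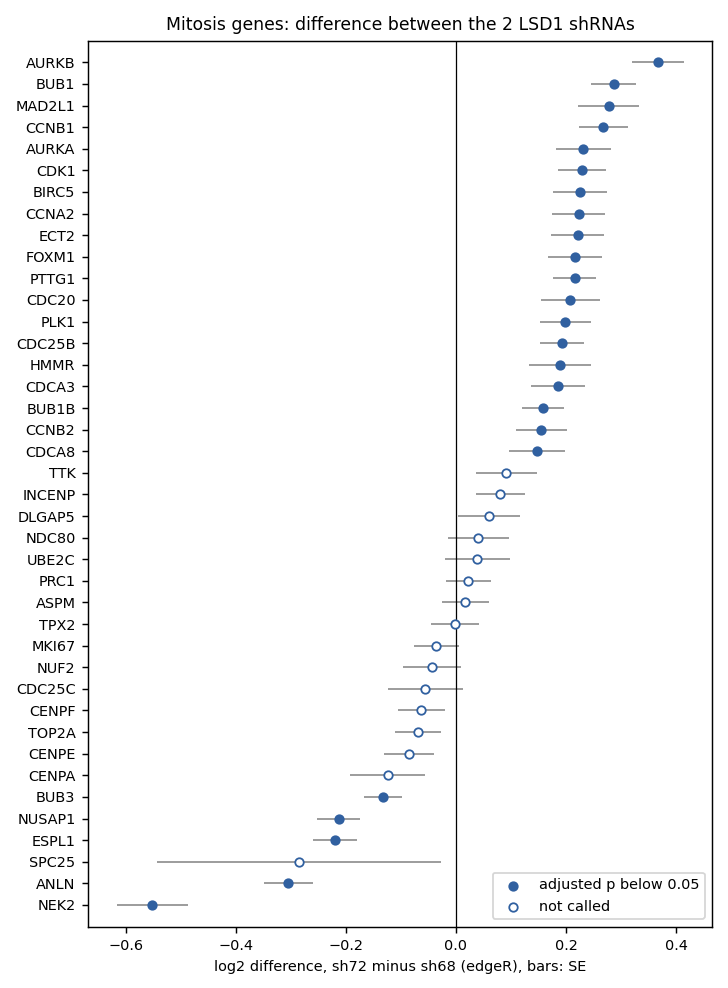
Log2 difference of each mitosis gene between sh72 and sh68 cells, with the SE as bars, ordered by size; filled points have an adjusted p below 0.05. The 5 filled points left of 0 are NEK2, ANLN, ESPL1, NUSAP1 and BUB3, and 19 filled points lie right of 0, up to AURKB.

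Levels per kb of exon (exon union of GENCODE 29) ranged widely. NUSAP1 had the highest level, 141 ± 7.23 CPM per kb in sh72 cells, 163 ± 4.86 in sh68 cells and 147 ± 2.09 in shSCR cells (SD, n = 3 each). TOP2A came next in shSCR cells, at 133 ± 2.70 CPM per kb, then PTTG1 at 89.7 ± 1.62 and CDK1 at 88.2 ± 1.11, which do not differ beyond their spread. At the low end stood CDCA3 (9.92 ± 0.252), CDC25C (8.19 ± 0.496) and, far below, SPC25 (0.633 ± 0.0840). ANLN and NEK2, which fell most on the mean of both hairpins, were in the lower part of this order, at 31.0 ± 0.515 and 15.4 ± 0.163 CPM per kb in shSCR cells.

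**Figure D5:**
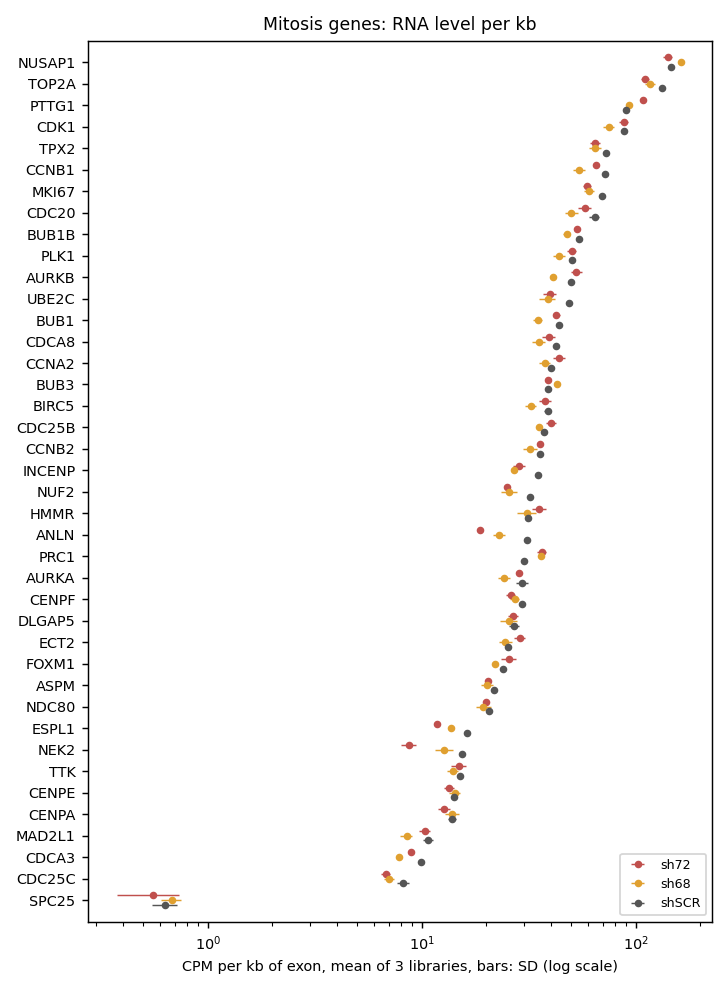
Mean level of each mitosis gene in sh72, sh68 and shSCR cells in CPM per kb of exon, on a log scale, with the SD of 3 libraries as bars and genes ordered by the shSCR level. NUSAP1 (147 CPM per kb in shSCR cells) is at the top and SPC25 (0.633) at the bottom, and the points of one gene lie close together beside the range between genes.

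Other genes of the same pathways, 135 tested in 7 lists, gave 48 that fell and 28 that rose on the mean of both hairpins, 35.6% and 20.7%, against 27.5% and 24.9% of all genes, and their median was -0.041. The lists were chosen with earlier results of these data known, so their shares are descriptive. The balance moved with the scaling: 39 fell and 42 rose with upper quartile scaling, and 41 fell and 39 rose with library size alone. The list of other regulators of mitotic entry had the highest share that fell, 11 of 16 (68.8%), with 2 that rose. In it BORA, which lets AURKA activate PLK1, averaged 38.4 ± 1.01 CPM in sh72 cells, 33.9 ± 1.19 CPM in sh68 cells and 48.3 ± 1.89 CPM in shSCR cells (SD, n = 3 each), at log2 -0.42 (adjusted p = 1.55e-08). GSG2 (haspin), the kinase that places the passenger complex at centromeres, and PKMYT1, an inhibitor of CDK1, fell at -0.35 and -0.34 (adjusted p = 9.7e-06 and 0.000157). PKMYT1, an inhibitor of CDK1, and CDC25C, an activator, thus both fell.

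Of 17 subunits and partners of the anaphase-promoting complex 5 fell and 2 rose, with ANAPC10 at -0.28, but 3 fell and 5 rose with upper quartile scaling. Of 20 condensin and cohesin genes 6 fell, SGO2 (shugoshin) most at -0.33, and 3 rose, SMC1A most at 0.22, but 5 fell and 7 rose with upper quartile scaling and with library size alone. With sh68 6 of them fell and 8 rose (30% and 40%, against 28.1% and 27.4% of all genes). With sh72 8 fell and 2 rose (40% and 10%, against 26.3% and 24.7%). Of 30 further kinetochore genes 10 fell and 9 rose, between CENPL at -0.30 and CENPK at 0.29, a mean over unlike hairpins for CENPL, which was at -0.64 in sh72 cells (adjusted p = 3.28e-09) and at 0.042 in sh68 cells (adjusted p = 0.545, not called). With upper quartile scaling 7 of these kinetochore genes fell and 11 rose, and with library size alone 8 fell and 11 rose. Of 25 other spindle and centrosome genes 9 fell and 5 rose, with SPAG5 (astrin) at -0.30 and HAUS4 (augmin) at 0.26. Of 11 other cytokinesis genes 3 fell and 1 rose, and RACGAP1, the partner of ECT2 at the midzone, was at -0.24 (adjusted p = 6.32e-06). On the mean of both hairpins, the shares of these 5 lists that fell were 29.4%, 30%, 33.3%, 36% and 27.3%, near the 27.5% of all genes called lower. The shares that rose there were 11.8%, 15%, 30%, 20% and 9.09%, against 24.9% of all genes. The small counts moved with single libraries: the subunits of the anaphase-promoting complex that fell were 3 without shSCR replicate 1, shSCR replicate 2, sh68 replicate 3, sh72 replicate 2 or sh72 replicate 3, and the condensin and cohesin genes that rose were 5 without sh68 replicate 1 and 6 without sh72 replicate 2.

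Among 16 genes of the DREAM, MYB-MuvB and NF-Y complexes, which bind the promoter letters described for the mitosis genes, 6 rose and 4 fell. These were 37.5% and 25% of the list, against 24.9% and 27.5% of all genes. The mean joins unlike hairpins here. With sh68 8 rose and 3 fell (50% and 18.8%), against 27.4% and 28.1% of all genes. With sh72 5 rose and 7 fell (31.2% and 43.8%), against 24.7% and 26.3%. Between the hairpins 3 were higher and 8 lower in sh72 (18.8% and 50%), against 27.2% and 29%, and 1 of these differed at least 2-fold. NFYA, the DNA-contacting subunit of NF-Y, had 91.8, 98.9 and 101 CPM in sh72 cells, 117, 125 and 122 CPM in sh68 cells and 135, 136 and 145 CPM in shSCR cells, and fell at log2 -0.35 (adjusted p = 2.38e-08) on the mean of both hairpins. TFDP2, a partner of E2F factors, had 464, 427 and 434 CPM in sh72 cells, 459, 452 and 465 CPM in sh68 cells and 294, 298 and 295 CPM in shSCR cells, and rose at log2 0.61 (adjusted p = 2.16e-13). For NFYA the sh72 libraries were lowest and the shSCR libraries highest, with no overlap, and for TFDP2 every depleted library lay above every control. Genes of DNA replication, expressed before mitosis, showed the reverse of the mitosis genes: 17 of 25 rose and 2 fell. These were 68% and 8%, against the same 24.9% and 27.5% of all genes. Only 1 fell without shSCR replicate 1 or 2, any sh68 replicate, or sh72 replicate 2 or 3. The largest rise was that of GINS3, a subunit of the replicative helicase, at log2 0.72 (adjusted p = 5.55e-11). These 2 lists were also chosen with earlier results of these data known, so their shares are descriptive. The part of either group of values in the change of the mitosis genes was not tested.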

How the data were processed

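Polyadenylated RNA of 9 OCI-Ly1 libraries was measured by RNA-seq. The deposited table gives unnormalized counts of reads for each gene symbol. Per the submitters' processing notes the tools were CASAVA 1.8.2, STAR 2.5.2 and featureCounts 1.5.2 with the hg38 genome. How they were run, with which annotation and with which strand option, is not stated in these sources. Columns were matched to hairpins by name and to samples only for shSCR.

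Counts were analysed in R 4.3.3 with edgeR 4.0.16 (and limma 3.58.1): filterByExpr (minimum count 10, minimum total 15) kept 15725 genes, scaling was by TMM, and 1 quasi-likelihood model with a term for each of sh72, sh68 and shSCR was fitted to all 9 libraries (common biological coefficient of variation 0.0394). Contrasts were the mean of both hairpins against shSCR, the hairpins singly against shSCR, and the difference between them (sh72 minus sh68). The Benjamini-Hochberg adjustment ran over all genes tested, with calls below 0.05. The SE is the absolute log2 fold change over the square root of F. The model was also run on simulated counts in which a small set of genes changed alike with both hairpins. A difference between hairpins, and a change in as many genes as here, were not simulated. Alternatives were RLE, library size and upper quartile scaling, DESeq2 1.42.0, limma-voom, a robust dispersion fit, other filters, the compared groups alone, the LSD1 shRNA libraries as 1 group, a replicate block and leaving out each library. CPM are TMM-scaled. Replicates of a group correlated at 0.995 to 0.996 on log2 CPM, and chi-square per gene between them was 2.63 to 7.17, so none was a copy of another.

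The members, their roles and the pathway lists were chosen with earlier results of these data known, and written from general knowledge. All 40 members are named; values by library are given for up to 2 passing members of each role, those called higher on the mean and those with the largest differences. Pathway genes named are among the 3 largest passing changes of each list on the mean. Positions and promoters are from RefSeq on GRCh38.p14. 1 of the listed B-cell markers is not reported here.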

Additional observations from a re-analysis of the deposited data

Results flagged for a closer look

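The effects of the hairpins differed from each other, by the direct edgeR test of sh72 minus sh68 at an adjusted p below 0.05, in 24 of the 40 mitosis genes. Lower in sh72 than in sh68 were NEK2 at -0.55, ANLN at -0.30, ESPL1 at -0.22, NUSAP1 at -0.21 and BUB3 at -0.13 on the log2 scale.

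Higher in sh72 than in sh68 were AURKB at 0.37, BUB1 at 0.29, MAD2L1 at 0.28, CCNB1 at 0.27, AURKA at 0.23, CDK1 at 0.23 and BIRC5 at 0.22. Smaller positive differences were those of CCNA2 at 0.22, ECT2 at 0.22, FOXM1 at 0.22, PTTG1 at 0.22, CDC20 at 0.21 and PLK1 at 0.20. The remainder were CDC25B at 0.19, HMMR at 0.19, CDCA3 at 0.19, BUB1B at 0.16, CCNB2 at 0.16 and CDCA8 at 0.15. No samples lay in a group large enough for a test of outliers, since each hairpin had 3 libraries.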

How the results depend on the processing

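No call reversed direction under any alternative run. Of 26 members called on the mean of both hairpins, 12 kept the same call under every alternative, as did 24 of 29 with sh68, 13 of 20 with sh72 and 21 of 24 between the hairpins. Members called higher on the mean (2) became 6 with library size alone, 6 with upper quartile scaling and 1 with the 6 LSD1 shRNA libraries as 1 group, and 2 to 5 when 1 library was left out, with 5 without sh68 replicate 1 or sh72 replicate 2. Members called lower on the mean (24) became 11 with the LSD1 shRNA libraries as 1 group, a fit that puts the difference between hairpins into the spread, and 19 to 24 when 1 library was left out. Members lower with sh72 (14) were 9 to 17 with 1 library left out, and 9 without sh72 replicate 2. For the rest the cause was not tested. Other counts of members were within 1.5 times the main count under RLE scaling, DESeq2, limma-voom, a robust dispersion fit, without the filter, with at least 1 CPM in any 3 libraries and the fit of only the groups compared. With the LSD1 shRNA libraries as 1 group the 135 pathway genes gave 18 lower and 9 higher (48 and 28 with a term for each hairpin). The 16 regulators of mitotic entry gave 6 lower and the 25 replication genes 9 higher. Of all genes, 11% were lower and 11.8% higher in that fit. FZR1, SMC1A, NCAPH, CENPL and MYH10 were no longer called in it. Under every other alternative 9 to 11 regulators of mitotic entry were lower and 15 to 20 replication genes higher.

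With the replicate number as a block the counts were 3 higher and 24 lower on the mean, 3 and 27 with sh68, 6 and 16 with sh72, and 19 and 5 between the hairpins. Same-numbered libraries had residual correlations of -0.036 to 0.072, and libraries with different numbers -0.082 to 0.056. These overlapping ranges show no clear pairing by number, but with 3 libraries a group they cannot exclude one. The replicate block is therefore an alternative only.

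Most fold changes of the members lie under 0.4 on the log2 scale, 3 libraries a group come from 1 cell line, and the p-values measure only the spread between these libraries. The 2 hairpins share their control libraries, the annotation and strand setting of the counting are unknown, SPC25 rests on few reads, and bulk RNA does not separate cell cycle position from RNA per cell.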
